A study of Mus musculus with 12 samples.

Results

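Chemokines are small secreted proteins that guide leukocytes by binding receptors of the G protein-coupled kind on the cell surface. CXC and CC chemokines, named for the spacing of conserved cysteines, bind CXCR and CCR receptors, and a single receptor often takes several ligands. In pancreatic tumours, chemokines are known to draw in monocytes, neutrophils and T cells, and they are made by tumour cells, fibroblasts and leukocytes alike. The chemokine ligands and receptors described here were the genes whose array name begins with Ccl, Cxcl, Ccr, Cxcr, Xcl, Cx3cl or Cx3cr followed by a number. There were 53 of them among 37008 named genes, 36 ligands and 17 receptors, read by 74 probes.

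They were measured in tumours of female C57BL/6 mice, labelled 8 weeks of age, that carried orthotopic KP tumours of the pancreas. Mice were given vehicle (6 samples) or FAKi, an inhibitor of focal adhesion kinase, at 50 mg/kg by gavage (6 samples) for 14 days. Focal adhesion kinase is a cytoplasmic tyrosine kinase that relays integrin signals. The labels do not spell out KP, do not say whether 1 tumour line was implanted in all mice, and give no inhibitor name beyond FAKi. Total RNA came from pieces of tumour tissue, so tumour cells, stroma and leukocytes were read together, and fewer cells of a type cannot be told apart from less RNA per cell. The labels number the samples of a group as replicates and do not state that each came from its own mouse, so p-values measure the spread between these samples.

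Levels are log2 processed signal minus the 75th percentile of the same array, so a level of 0 lies at that percentile and 1 unit is a doubling. Levels of different genes come from different probes and are not set against each other. The 75th percentile lay at 11.82 on the array of vehicle 6 and between 12.82 and 13.88 on the other 11. The 5 epithelial markers examined were above background, and 3 of the 5 lay higher in FAKi tumours. Krt19 had a mean level of 5.27 in vehicle and 5.63 in FAKi tumours, and Epcam had 2.20 and 1.65. The mean level of the 5, each taken against its own mean over the 12 tumours, ran from -0.95 (vehicle 5) to 0.66 in vehicle tumours. In FAKi tumours it ran from -0.30 to 0.39. The mean level of the 4 acinar pancreas markers measured, each taken against its own mean over the 12 tumours, ran from -0.99 to -0.02 in vehicle and from 0.07 to 0.82 in FAKi tumours. It was the marker list whose groups did not overlap, and its part in the chemokine values was not tested. T cell marker scores were between -0.77 and 0.50 in 11 tumours and 1.62 in FAKi 5.

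Of the 53 genes, 45 (33 ligands and 12 receptors) reached the array software's well-above-background level on 6 or more arrays. The other 8 were Ccl22, Ccr1, Ccr4, Ccr10 and Cxcl15, which reached that level on 0 arrays, Ccl26 and Cxcr5 on 3 each, and Cxcr1 on 5. Cxcr1, a receptor of neutrophils, was well above background on 1 vehicle and 4 FAKi arrays, Ccl26 on 1 and 2, and Cxcr5 on 2 and 1. The share of all probes with such splits was not counted, so nothing is read from them. Of the 45, 44 were well above background on all 12 arrays, and Cxcl17 was on 5 of 6 vehicle and 6 of 6 FAKi arrays.

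Promoter sequence is shown for neighbours in the CXC ligand cluster of chromosome 5, since their levels are compared below, and for Ccl9 and Ccl6 on chromosome 11. The sequences are those of RefSeq on GRCm38.p6, 5′ to 3′ on the gene's strand up to the base before the annotated start, with matches to searched motifs in capitals.
Cxcl1 (chr5:90891115-90891244, + strand): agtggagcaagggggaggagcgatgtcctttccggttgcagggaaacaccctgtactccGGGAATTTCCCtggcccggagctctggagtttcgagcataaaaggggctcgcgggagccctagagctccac
Cxcl2 (chr5:90903769-90903898, + strand): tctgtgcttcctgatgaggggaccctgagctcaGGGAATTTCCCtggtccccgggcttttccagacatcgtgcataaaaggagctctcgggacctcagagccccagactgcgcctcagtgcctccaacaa
Cxcl3 (chr5:90785971-90786100, + strand): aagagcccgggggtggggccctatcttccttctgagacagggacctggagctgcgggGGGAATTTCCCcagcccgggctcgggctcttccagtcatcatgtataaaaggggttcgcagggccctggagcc
Cxcl10 (chr5:92348890-92349139, - strand): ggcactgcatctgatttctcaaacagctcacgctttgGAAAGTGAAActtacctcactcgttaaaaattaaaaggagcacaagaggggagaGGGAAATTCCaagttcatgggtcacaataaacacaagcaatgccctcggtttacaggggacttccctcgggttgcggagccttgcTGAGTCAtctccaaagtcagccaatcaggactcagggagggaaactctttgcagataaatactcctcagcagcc
Ccl9 (chr11:83578637-83578766, - strand): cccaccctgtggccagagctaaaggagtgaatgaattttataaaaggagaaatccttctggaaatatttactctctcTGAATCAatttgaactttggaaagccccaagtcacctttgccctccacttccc
Ccl6 (chr11:83593088-83593217, - strand): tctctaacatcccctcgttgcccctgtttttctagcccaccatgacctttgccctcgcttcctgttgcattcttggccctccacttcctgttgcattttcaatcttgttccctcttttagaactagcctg
Capitals mark the kappa B motif bound by NF-kappa B factors, searched as GGGA and TTCC with 2 free bases between, in Cxcl1, Cxcl2, Cxcl3 and Cxcl10. In Cxcl10 they also mark the interferon-stimulated response element, searched as GAAA and GAAA with 2 free bases between, and TGANTCA, the AP-1 motif, which is marked in Ccl9 too. In Ccl6 none of these letters occurred in the stretch shown. Over the 250 bases before the start, read on both strands, 38 members had an entry. The kappa B letters were in 6 of 38 (15.8%), Ccl1, Ccr3, Cxcl1, Cxcl2, Cxcl3 and Cxcl10, against 368 of 27025 genes (1.36%). The interferon element was in 3 of 38 (7.89%) against 3.46%, the AP-1 letters in 5 of 38 (13.2%) against 7.82%, and TTCNNNGAA, the gamma-activated site, in 3 of 38 (7.89%) against 8.13%. On Cxcl1, Cxcl2 and Cxcl3 the kappa B letters match on both strands at overlapping positions.

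FAKi tumours were compared with vehicle tumours to ask whether FAK inhibition was accompanied by other chemokine levels. None of the 45 measured members passed limma at an adjusted p of 0.05, where 0 of 27354 genes passed (0%), and their adjusted p lay between 0.9994 and 0.9996. At an unadjusted p under 0.05 there was 1 member of 45 (2.22%), Ccl11, beside 4.79% of all genes. It lay higher in FAKi tumours, as 2.72% of all genes did at that p, and 0 members were lower, beside 2.08% of all genes. The groups overlapped for all of the 44 members with a value on every array, beside 0.239% of all genes whose groups did not. Differences ranged from -1.29 (Cxcl13) to 1.63 (Ccl24), and 27 of 45 were smaller than their standard error. Above 0 lay 16 of 45 (35.6%), beside 60.5% of all genes, and the median was -0.06 beside 0.08. By role, 13 of 33 ligands and 3 of 12 receptors lay above 0, with medians of -0.05 and -0.27.

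The arrays lay on 5 slides, and slides 1 and 4 held both groups. Each of these slides held 2 vehicle tumours and 1 FAKi tumour. With slide as a fixed block, the fitted difference therefore reads FAKi 5 and FAKi 1 alone on the FAKi side. The other 4 FAKi tumours, and vehicle 1 and vehicle 4 on slide 2, add nothing to that difference. In that fit 0 members passed and 31 of 45 lay above 0, with a median of 0.39 beside -0.03 for all genes. FAKi 5 had a median member level of 0.64 against the members' own means, the highest of the 12 tumours. Members differed widely from tumour to tumour. The SD over the 12 tumours had a median of 0.79 for the members and 0.59 for all genes, and 37 of 45 exceeded the latter. The span from the lowest to the highest tumour ranged from 0.99 (Ccl25) to 9.42 (Ccl21a) on the log2 scale, with a median of 2.66.

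**Figure D1:**
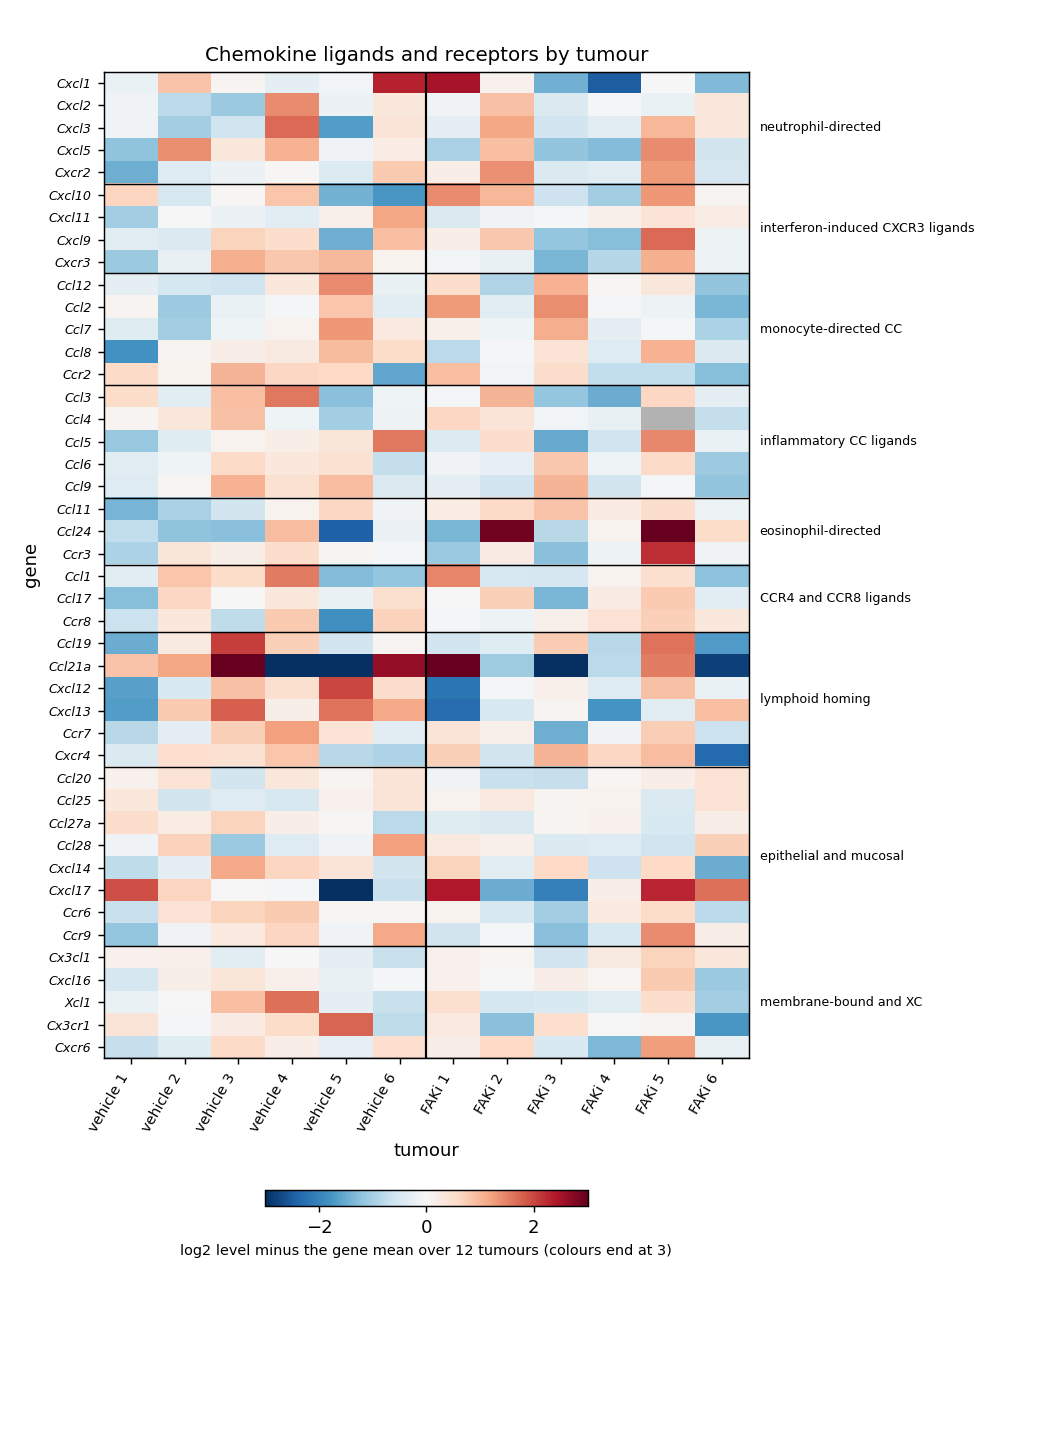
Each cell is the log2 level of 1 gene (rows, by functional group) in 1 tumour (columns) minus the gene's mean over 12 tumours, with colours ending at 3 and a grey cell where Ccl4 had no value. FAKi 5 was the highest tumour for 10 members, and for each gene shown the colours of the groups overlap.

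**Figure D2:**
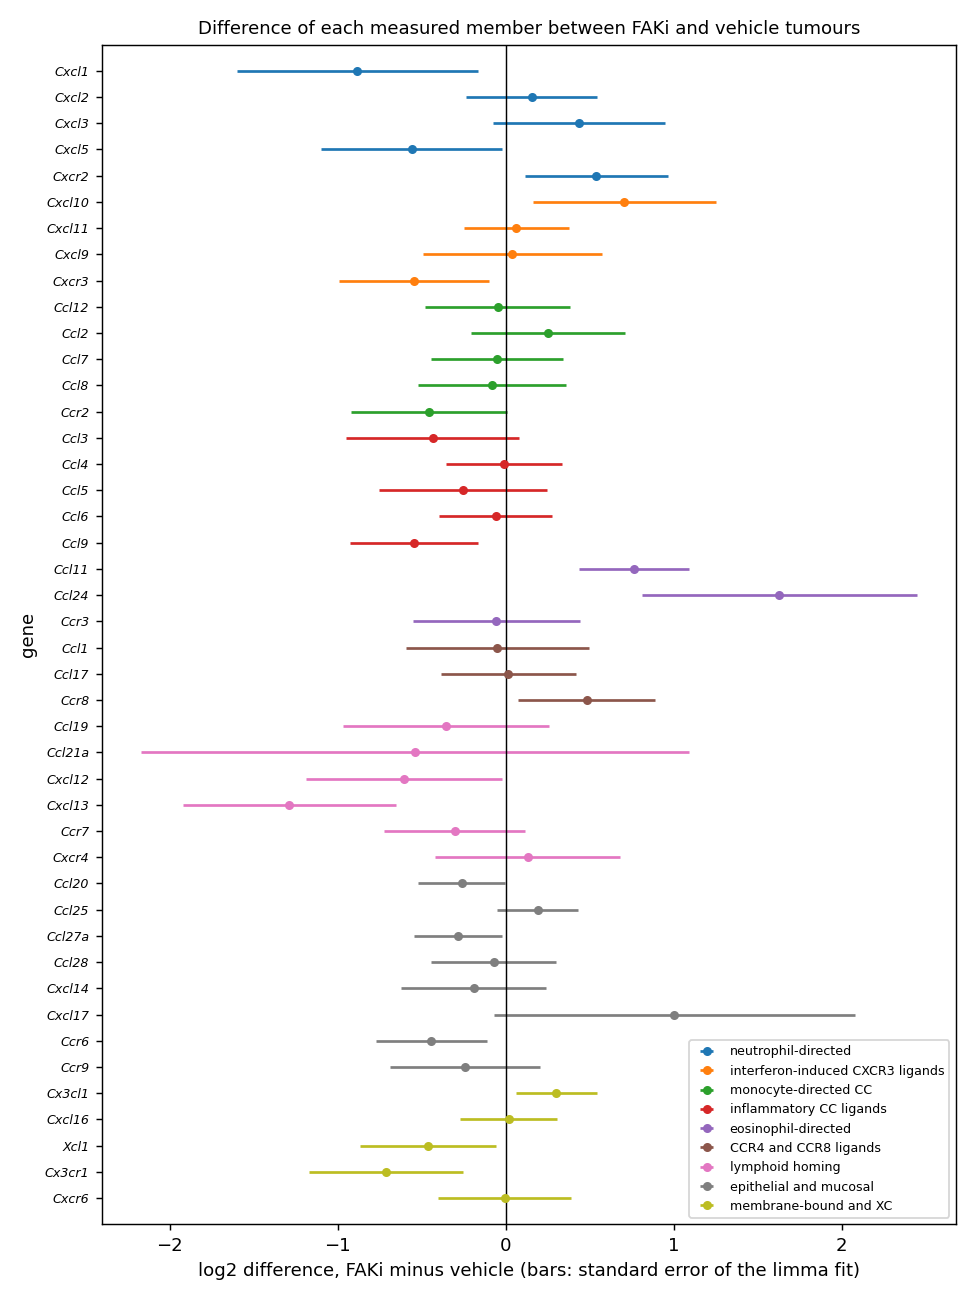
Points are the log2 difference of each of 44 genes, FAKi minus vehicle, with the standard error of the limma fit as bars, coloured by functional group. The points run from -1.29 for Cxcl13 to 1.63 for Ccl24, and 27 bars reach 0.

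The neutrophil-directed CXC ligands act on CXCR2, the main chemotactic receptor of neutrophils. Of the 5 measured members of this group 3 lay above 0 and 0 passed. Cxcl1 ran from -1.24 to 1.35 (median -0.95) in vehicle tumours and from -3.43 to 1.52 (median -1.60) in FAKi tumours. The highest tumours were FAKi 1 (1.52) and vehicle 6 (1.35), and the lowest was FAKi 4, so the vehicle range lay inside the FAKi range. The difference was -0.88 (SE 0.72, limma unadjusted p = 0.24). It was -1.46 without FAKi 1, -0.47 without FAKi 4, -0.51 without vehicle 6, and 0.46 with slide as a block. Cxcr2 ran from -5.53 to -3.26 (median -4.34) in vehicle tumours and from -4.56 to -2.69 (median -4.11) in FAKi tumours. FAKi 2 and FAKi 5 were highest and vehicle 1 lowest, with a difference of 0.54 (SE 0.43, limma unadjusted p = 0.228). Cxcl5, made mainly by epithelial cells, ran from -3.45 to -0.86 (median -1.97) in vehicle tumours and from -3.55 to -0.83 (median -3.01) in FAKi tumours, with FAKi 5 and vehicle 2 highest. Cxcl2 and Cxcl3, which resemble Cxcl1 closely in sequence, differed by 0.15 and 0.44. Neutrophil marker scores ran from -0.93 to 0.83 in vehicle and from -0.62 to 1.23 in FAKi tumours, and their part here was not tested.

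Cxcl9, Cxcl10 and Cxcl11 are induced by interferon and attract activated T and NK cells through CXCR3. In this group 3 of 4 lay above 0 and 0 passed. Cxcl10 ran from -1.74 to 0.83 (median -0.23) in vehicle tumours and from -1.06 to 1.41 (median 0.54) in FAKi tumours. FAKi 1, FAKi 5 and FAKi 2 were the 3 highest tumours, while FAKi 4 and FAKi 3 lay among the low vehicle values. The difference was 0.71 (SE 0.54, limma unadjusted p = 0.217), and was 0.43 without vehicle 6. With slide as a block it was 2.25, read from FAKi 5 and FAKi 1, which were the highest tumours. Cxcl9 ran from 2.15 to 4.51 (median 3.72) in vehicle tumours and from 2.32 to 5.30 (median 3.64) in FAKi tumours, with FAKi 5 highest and vehicle 5 lowest. Cxcr3, the receptor, ran from -3.44 to -1.25 (median -1.86) in vehicle tumours and from -3.69 to -1.26 (median -2.51) in FAKi tumours. It was high in vehicle 3, vehicle 5 and FAKi 5 and lowest in FAKi 3, and differed by -0.55 (SE 0.44, limma unadjusted p = 0.24).

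The monocyte-directed ligands Ccl2, Ccl7 and Ccl12 act mainly through CCR2 and related receptors, and CCR2 is needed for monocytes to leave the bone marrow. The group as set also held Ccl8. Here 1 of 5 lay above 0 and 0 passed. Ccl2 ran from 1.26 to 3.19 (median 2.24) in vehicle tumours and from 0.99 to 3.76 (median 2.25) in FAKi tumours. FAKi 3, FAKi 1 and vehicle 5 were highest and FAKi 6 was lowest, and the difference was 0.25 (SE 0.46, limma unadjusted p = 0.591). Ccl12, a mouse chemokine close to Ccl2, ran from 2.01 to 4.02 (median 2.37) in vehicle tumours and from 1.42 to 3.65 (median 2.80) in FAKi tumours, with vehicle 5 and FAKi 3 highest. Ccr2 ran from -4.68 to -2.11 (median -2.53) in vehicle tumours and from -4.39 to -2.21 (median -3.53) in FAKi tumours. Vehicle 6 was lowest and stood well below the other 5 vehicle tumours. Its array was the dimmest, and the scaled Ccr2 level followed the array's 75th percentile with r = 0.77 over all arrays. The part of brightness in the Ccr2 values was not tested. The difference was -0.46 (SE 0.46, limma unadjusted p = 0.342), was -0.81 without vehicle 6, and was 0.05 with slide as a block. Macrophage marker scores ran from -0.81 to 0.94 in vehicle and from -0.89 to 0.66 in FAKi tumours, and their part was not tested.

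Ccl3, Ccl4, Ccl5, Ccl6 and Ccl9 are inflammatory CC ligands that attract myeloid and T cells. Read by their brightest probes, all 5 measured ligands lay below 0 and 0 passed, and the largest size was 0.55. Ccl9 ran from 2.42 to 3.91 (median 3.09) in vehicle tumours and from 1.66 to 3.88 (median 2.43) in FAKi tumours. Vehicle 3, FAKi 3 and vehicle 5 were highest and FAKi 6 lowest, and the difference was -0.55 (SE 0.38, limma unadjusted p = 0.172). Ccl3 ran from -3.88 to -1.05 (median -2.42) in vehicle tumours and from -4.11 to -1.61 (median -2.78) in FAKi tumours, with vehicle 4 highest and FAKi 4 lowest. The Ccl4 spot was marked as an outlier on FAKi 5, so its fit used 11 arrays and gave -0.01 (SE 0.35, limma unadjusted p = 0.974). The other Ccl4 probe gave 0.26 and correlated with the brightest at r = 0.21, so the sign of Ccl4 is not settled. The value of the brightest probe lacks FAKi 5, so the 2 values may also rest on unlike tumours.

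Eosinophils are drawn by Ccl11 and Ccl24, the eotaxins, through CCR3. Ccl11 ran from -1.20 to 0.82 (median -0.13) in vehicle tumours and from 0.05 to 1.05 (median 0.59) in FAKi tumours. Vehicle 1, 2 and 3 were the 3 lowest tumours and FAKi 3 the highest, while vehicle 5 exceeded 5 of the 6 FAKi tumours. The difference was 0.76 (SE 0.33, limma unadjusted p = 0.0356), and the mean of the vehicle tumours was exceeded in 6 of 6 FAKi tumours. It did not pass over all genes (limma adjusted p = 0.9994). Within slides 1 and 4, with 1 FAKi tumour each, it was 0.49 and 0.77. Ccl24 ran from -1.41 to 1.95 (median 0.05) in vehicle tumours and from -0.34 to 4.55 (median 1.36) in FAKi tumours. FAKi 5 (4.55) and FAKi 2 (3.91) stood above the rest, and the other 4 FAKi tumours lay within the vehicle range. The difference was 1.63 (SE 0.82, limma unadjusted p = 0.0666), and within slides 1 and 4 it was 5.37 and -0.68. Ccr3 differed by -0.05 and was highest in FAKi 5 (-1.03).

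CCR4 and CCR8 mark T helper 2 and regulatory T cells. Ccr8 ran from -2.80 to -0.18 (median -1.12) in vehicle tumours and from -1.12 to -0.24 (median -0.73) in FAKi tumours. Vehicle 5 was lowest, vehicle 4, FAKi 5 and vehicle 6 were highest, and the difference was 0.48 (SE 0.41, limma unadjusted p = 0.257), or 0.16 without vehicle 5. Ccl1, a ligand of CCR8, ran from -5.07 to -2.20 (median -3.67) in vehicle tumours and from -4.99 to -2.30 (median -3.96) in FAKi tumours, and differed by -0.05 (SE 0.54, limma unadjusted p = 0.929). Its 2 probes disagreed across tumours (r = -0.49 over 12 tumours, as a description), so its level depends on the probe. Ccl17 differed by 0.02.

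**Figure D3:**
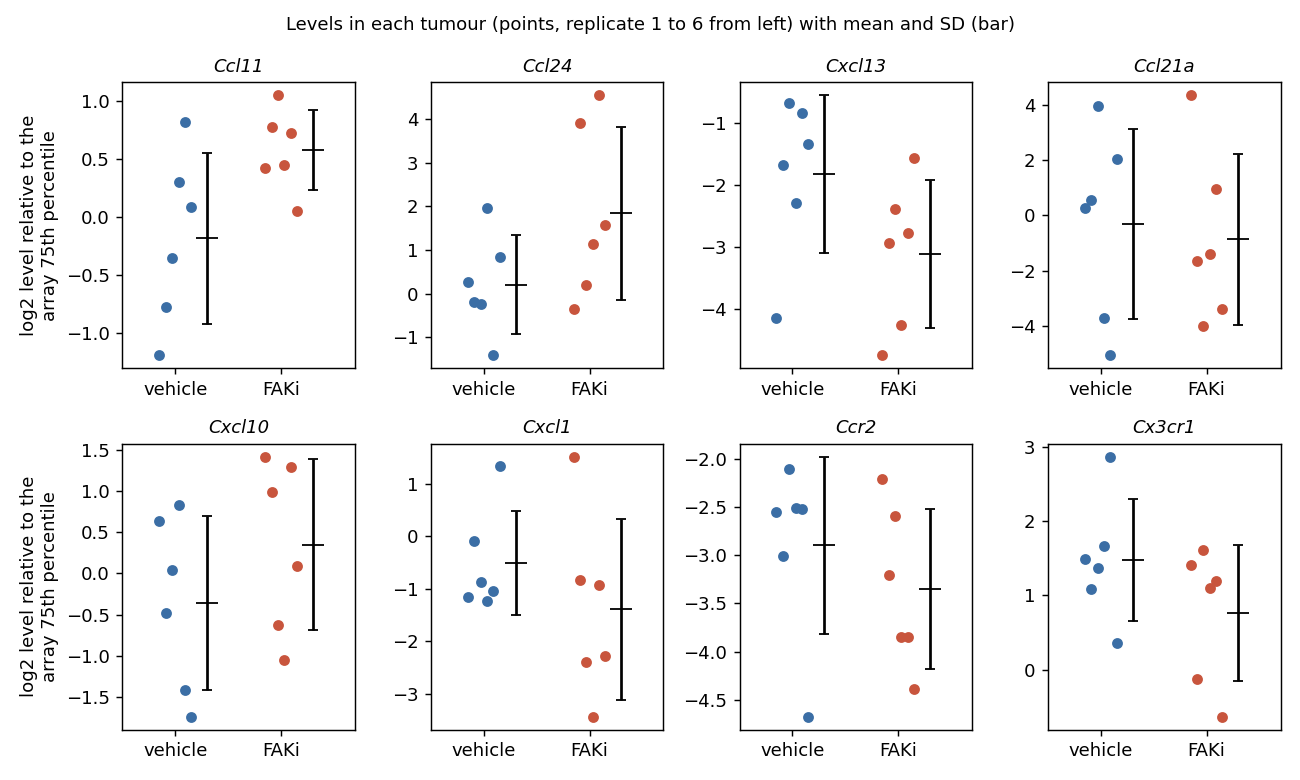
Log2 level relative to the array's 75th percentile (vertical axis) of 8 genes in 6 vehicle and 6 FAKi tumours, as points, with the mean and SD beside them. Ccl24 was highest in FAKi 5 and FAKi 2, Ccl21a spanned 9.42 units, and the groups overlap in all 8 panels.

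The lymphoid homing genes guide lymphocytes and dendritic cells into lymphoid tissue. In this group 1 of 6 lay above 0 and 0 passed. Cxcl13, the B cell attractant, ran from -4.15 to -0.67 (median -1.51) in vehicle tumours and from -4.75 to -1.56 (median -2.86) in FAKi tumours. FAKi 1, FAKi 4 and vehicle 1 were the lowest tumours, and the other 4 FAKi tumours lay within the vehicle range. The difference was -1.29 (SE 0.63, limma unadjusted p = 0.062). Within slides 1 and 4 it was -2.03 and -3.24, each from 1 FAKi tumour, and -2.64 with slide as a block. Ccl21a, which brings CCR7-bearing cells to lymph nodes, ran from -5.07 to 3.97 (median 0.41) in vehicle tumours and from -4.02 to 4.35 (median -1.54) in FAKi tumours. FAKi 1 and vehicle 3 were highest and vehicle 5, FAKi 3, vehicle 4 and FAKi 6 were low, so the spread within each group was far larger than the difference of -0.54 (SE 1.63, limma unadjusted p = 0.745). Near-identical Ccl21 copies exist in C57BL/6 mice, so its probe may read more than 1 gene. Scores of 4 lymph node stroma and endothelium markers were between -0.86 and 0.98 in vehicle and between -0.37 and 0.82 in FAKi tumours, and their part in it was not tested. Cxcl12, a stromal ligand of CXCR4, ran from -1.44 to 2.19 (median 0.69) in vehicle tumours and from -2.01 to 1.05 (median 0.06) in FAKi tumours, with vehicle 5 highest and FAKi 1 lowest, and differed by -0.61 (SE 0.58, limma unadjusted p = 0.318). It was -0.99 without vehicle 1, -0.27 without vehicle 5 and -0.23 without FAKi 1. Ccl19, the other CCR7 ligand, ran from -2.36 to 1.19 (median -0.69) in vehicle tumours and from -2.58 to 0.77 (median -1.33) in FAKi tumours, highest in vehicle 3 and FAKi 5, and Ccr7 ran from -0.98 to 1.08 (median -0.08) in vehicle tumours and from -1.62 to 0.60 (median -0.12) in FAKi tumours.

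Among epithelial and mucosal chemokines 2 of 8 lay above 0 and 0 passed. Cxcl17, a mucosal chemokine, ran from -6.60 to 0.23 (median -1.74) in vehicle tumours and from -3.77 to 0.68 (median -0.77) in FAKi tumours. Vehicle 5 was far below the others, and Cxcl17 was well above background on 5 of the 6 vehicle arrays. Its lowest unscaled log2 signal, 6.33, was the lowest of any measured member, so the low end may be a background reading. The highest tumours were FAKi 1, FAKi 5 and vehicle 1. The difference was 1.004 (SE 1.07, limma unadjusted p = 0.366), and 0.13 without vehicle 5. With slide as a block it was 3.57, where slide 1, which holds vehicle 5, gave 4.74 and slide 4 gave 2.40. Ccr6, the receptor of Ccl20, ran from -3.99 to -2.54 (median -3.09) in vehicle tumours and from -4.37 to -2.77 (median -3.51) in FAKi tumours, with vehicle 4 highest and FAKi 3 lowest, and differed by -0.44 (SE 0.33, limma unadjusted p = 0.203). Ccl27a, a skin chemokine, ran from -1.43 to 0.04 (median -0.41) in vehicle tumours and from -1.08 to -0.43 (median -0.76) in FAKi tumours, lowest in vehicle 6, and differed by -0.28 (SE 0.26, limma unadjusted p = 0.302). Its other probes gave -0.40 and 0.17, with a lowest r of 0.09 with the brightest.

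Cx3cl1 and Cxcl16 are the chemokines made as membrane-bound proteins, and CX3CR1 marks macrophages and monocytes. Cx3cr1 ran from 0.35 to 2.86 (median 1.43) in vehicle tumours and from -0.63 to 1.61 (median 1.14) in FAKi tumours. Vehicle 5 was highest and FAKi 6 and FAKi 2 lowest, and the difference was -0.71 (SE 0.46, limma unadjusted p = 0.144). Cx3cl1 ran from 1.68 to 2.50 (median 2.21) in vehicle tumours and from 1.76 to 2.99 (median 2.54) in FAKi tumours, highest in FAKi 5 and lowest in vehicle 6, and differed by 0.30 (SE 0.24, limma unadjusted p = 0.232); with the mean of its 2 probes the difference was -0.10. Cxcl16 ran from 3.15 to 4.01 (median 3.70) in vehicle tumours and from 2.53 to 4.43 (median 3.74) in FAKi tumours, and its receptor Cxcr6 ran from -2.27 to -1.01 (median -1.61) in vehicle tumours and from -2.94 to -0.34 (median -1.61) in FAKi tumours, both highest in FAKi 5. Cxcl16 differed by 0.02 with its brightest probe and by -0.33 with the other, and these 2 probes correlated at r = 0.37.

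Tumour by tumour, FAKi 5 had the highest value for 10 members, and it also had the highest T cell marker score. Of those measured, 37 members lay above their own mean in vehicle 4 and 35 in FAKi 5. Vehicle 3 and vehicle 4 were highest for 8 members each. FAKi 6 was lowest for 11 and vehicle 5 and FAKi 3 for 8 each. The median member level against its own mean was 0.64 in FAKi 5 and -0.43 in FAKi 3, where the same median over all genes was 0.02 and -0.03.

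Ligands were next set beside the receptors they bind, across the 12 tumours. Of 28 known pairs 21 could be computed, and 0 passed a permutation test after Benjamini-Hochberg adjustment over the 21. The correlation was above 0 for 18 of 21, with a median r of 0.30, while the median over all 990 pairs of members was 0.14 and 65.2% of those were above 0. Cxcl5 and Cxcr2 had the highest (r = 0.59, permutation p = 0.044, adjusted p = 0.58; rho = 0.57, p = 0.059, adjusted p = 0.50), and r was 0.49 without the 2 tumours farthest from the median of the ligand. Ccl2 and Ccr2 gave r = 0.57 (permutation p = 0.057, adjusted p = 0.58; rho = 0.55, p = 0.072, adjusted p = 0.50), and 0.46 without 2 tumours. Cxcl9 and Cxcr3 gave r = 0.50 (permutation p = 0.097, adjusted p = 0.58; rho = 0.47, p = 0.127, adjusted p = 0.65), and 0.76 without 2. Within the 6 FAKi tumours these pairs had r of 0.91, 0.91 and 0.92 (exact permutation p = 0.039, 0.017 and 0.015, not adjusted), and within the 6 vehicle tumours 0.56, 0.30 and 0.08 (exact permutation p = 0.201, 0.417 and 0.890). The difference between the groups' correlations was not tested. Cxcl16 with Cxcr6, Ccl19 with Ccr7 and Ccl12 with Ccr2 had r of 0.45, 0.44 and 0.39 (permutation adjusted p = 0.58 each).

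Many chemokine genes lie side by side, and 20 pairs of measured neighbours started within 200 kb of each other on mm9. This family of pairs was chosen after the values had been seen. By permutation, 4 of the 20 passed after adjustment over the 20, and r was above 0 for 14 (70.0%), near the 65.2% of all 990 member pairs. Over those 990 pairs the 95th percentile of r was 0.73. Of the 4, 3 are described. Ccl9 and Ccl6, 13774 bases apart on chromosome 11, had r = 0.88 (permutation p = 0.0002, adjusted p = 0.0038; rho = 0.88, adjusted p = 0.0060), 0.82 without 2 tumours, 0.96 within vehicle and 0.92 within FAKi tumours. Both were high in vehicle 3, vehicle 5 and FAKi 3 and lowest in FAKi 6. Ccl2 and Ccl7, 10006 bases apart, had r = 0.82 (permutation adjusted p = 0.018; rho = 0.66, adjusted p = 0.098), 0.88 without 2 tumours, 0.89 within each group. Both were high in vehicle 5 and FAKi 3, and the pair missed the threshold without FAKi 3 or without FAKi 6. Ccr9 and Cxcr6 had r = 0.73 (permutation adjusted p = 0.043; rho = 0.79, adjusted p = 0.022), 0.53 without FAKi 5 and vehicle 6 (permutation p = 0.111), 0.87 within vehicle and 0.70 within FAKi tumours (exact permutation p = 0.019 and 0.122, not adjusted). It passed under 3 of the 12 fits that each left out 1 tumour, and missed the threshold without any single vehicle tumour and without FAKi 3, FAKi 5 or FAKi 6. After subtraction of slide means, over 11 tumours, r was 0.80 for Ccl2 and Ccl7, 0.78 for Ccl9 and Ccl6 and 0.64 for Ccr9 and Cxcr6 (permutation adjusted p = 0.046, 0.046 and 0.089). The subtraction ties the values of a slide together while the permutation exchanged them freely, so these p-values may be too small.

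**Figure D4:**
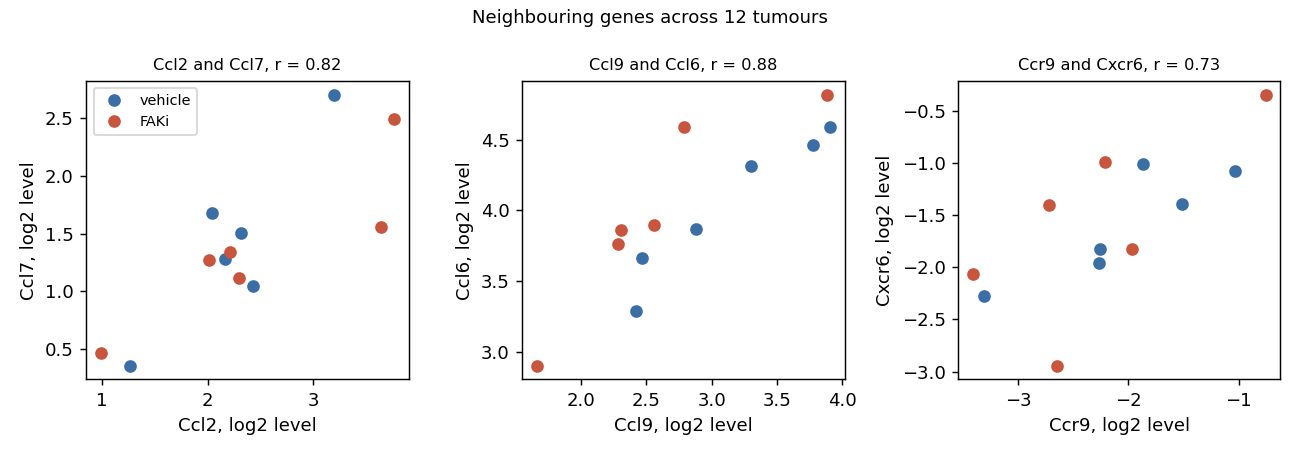
Log2 levels of 3 pairs of neighbouring genes, 1 point per tumour, with r over 12 tumours above each panel. Ccl9 and Ccl6 had r = 0.88 and Ccl2 and Ccl7 r = 0.82 over the 12 tumours.

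Not all neighbours moved together. Cxcl1 and Cxcl2, 12454 bases apart and both with the kappa B letters shown above, had r = -0.03 (permutation adjusted p = 0.97; rho = -0.12, adjusted p = 0.86), and Cxcl3 and Cxcl1 r = 0.02 (permutation adjusted p = 0.97; rho = 0.02, adjusted p = 0.96). Cxcl9 and Cxcl10 had r = 0.55 (permutation adjusted p = 0.18; rho = 0.48, adjusted p = 0.26). The longest run of bases that probes of neighbours shared was between 4 and 13.

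Cxcl10 and Cxcl11 had r = -0.57 (permutation adjusted p = 0.15; rho = -0.49, adjusted p = 0.26). The brightest Cxcl11 probe read 18.37 to 18.76 in unscaled log2 signal on all 12 arrays, where the brightest spot of each array read 19.03 to 19.59. Its scaled level spanned 2.20 units and followed the array's 75th percentile with r = -0.97 over 12 arrays, which share that percentile by construction. Its 20-base run in capitals occurs in probes of 6 other genes on the same strand and in 14 of 32851 promoter windows, and is shown for that reason with 5 bases on either side.
Cxcl11 probe, bases 17 to 46: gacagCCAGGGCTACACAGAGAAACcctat
The other Cxcl11 probe correlated with it at r = -0.19. Cxcl11 values are therefore given with this limit, and C57BL/6 mice are known to carry a frameshift in Cxcl11.

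**Figure D5:**
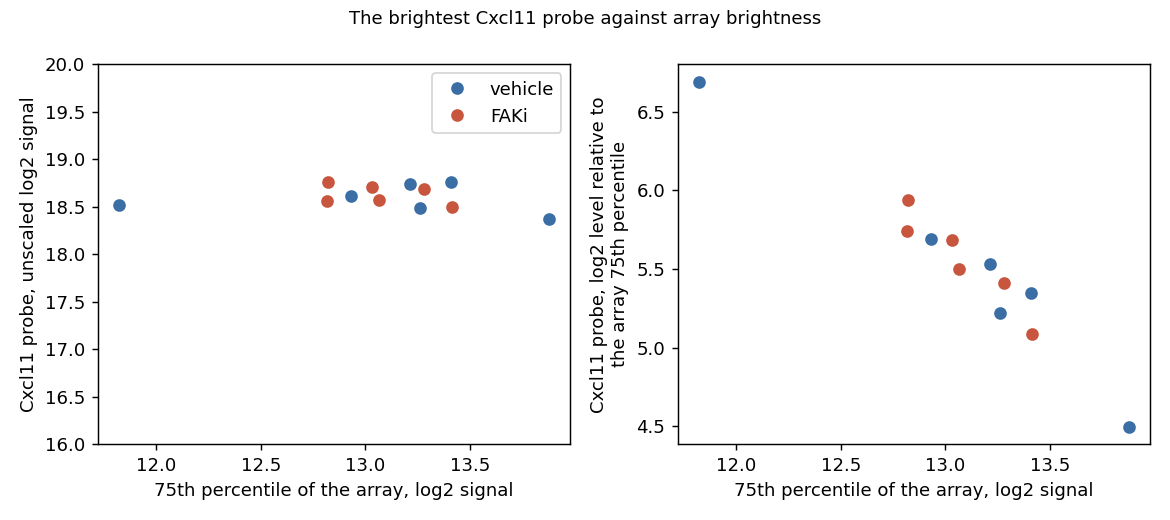
The brightest Cxcl11 probe on 12 arrays against the array's 75th percentile, as unscaled log2 signal (left) and relative to that percentile (right). The unscaled signal stays between 18.37 and 18.76, and the scaled level falls as the percentile rises.

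Other genes of the chemokine system were read from 3 lists. Of 10 atypical receptors and remaining ligands, 8 were measured, 5 lay above 0, and 0 passed. Ackr2, which scavenges CC chemokines, differed by -0.91 (SE 0.67, limma unadjusted p = 0.193). Ackr3, a scavenger of Cxcl12, differed by -0.54 (SE 0.37, limma unadjusted p = 0.16). They are 2 of the 3 that lay below 0, and the largest difference above 0 was 0.20. Of 17 genes for signalling from the receptors, all were measured, 8 lay above 0, 0 passed over all genes and 1, Arrb1, a beta-arrestin, had an unadjusted p under 0.05 (-0.68, SE 0.26, limma unadjusted p = 0.0193). That is 5.88% of the 17, near the 4.79% of all genes. Of 17 inducers of chemokines such as Tnf and Ifng, 16 were measured, 8 lay above 0 and 0 passed.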

How the data were processed

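The members, gene groups and lists were chosen with earlier results of these data known. Per the file headers, the intensity values of the 12 one-colour Cy5 arrays came from the authors' run of Agilent Feature Extraction 11.5.1.1 on an mm9 design, with background subtracted. The deposited log2 table of 38569 probes has medians of 10.71 to 10.90 and each column matched its own array best (r of at least 0.9965 over probes, which are not independent). Limma is named in the submitters' processing notes, and the normalisation and probe filter of that table are not given in the sources used here. Its values were not centred per gene.

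Control spots and the 71 to 156 spots per array that the software marked as outliers were left out, spots of a probe were averaged, and 0 spots were saturated. Log2 processed signal minus the array's 75th percentile was used. Probes well above background on at least 6 of 12 arrays were kept (40460 probes, 27354 genes), and each gene was read by its brightest probe. Between 66.6% and 76.1% of spots per array were well above background, and the number of arrays limits the precision. Groups were compared in limma 3.58.1 (lmFit, eBayes) under R 4.3.3 with Benjamini-Hochberg adjustment at 0.05. Correlations used 100000 resamples over 12 tumours and exact permutation over 6, two-sided, in Python 3.11.15. Named genes were the 2 of smallest p and the 1 of largest SD in each functional group and the 6 ligand and receptor pairs of largest r. Members named beyond these were chosen after their values were seen. 1 member that the rule took is not reported here, though counts over the members include it. Slides were read from the arrays' identifiers. Alternatives covered quantile normalisation, normexp (offset 50), centring on the median, the deposited table, no filter and a stricter filter, averaging probes within a gene, slide and replicate blocks, array weights, a variance trend and leaving out each array. The fit was tested on simulated data, 5 times, with known shifts in 200 of 27241 genes. At an adjusted p under 0.05 it recovered 20.9% of shifts of 1 log2 unit, 69.6% of shifts of 2 and 92.7% of shifts of 3. Most shifts of 1 unit were therefore missed.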

Additional observations from a re-analysis of the deposited data

Results flagged for a closer look

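In the 6 vehicle tumours, Ccr2 in vehicle 6 stood apart from the others at -4.68, with a gap to the nearest tumour of 0.650 of the whole range. Over 56 group tests 1 was flagged, where chance gives about 1 in 20. Vehicle 6 was also the dimmest array. The scaled Ccr2 level followed the array's 75th percentile with r = 0.77 over all arrays, vehicle 6 among them. Over the measured members this r ran from -0.97 (Cxcl11) to 0.77 (Ccr2). The part of brightness in the Ccr2 value of vehicle 6 was not tested.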

How the results depend on the processing

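No member passed over all genes under any of the alternatives listed, and no ligand and receptor pair passed, with 0 to 0 pairs when 1 tumour was left out. Over all genes 3 passed with array weights, and 0 to 3 when 1 tumour was left out (3 without FAKi 1). Without vehicle 6, 3774 genes had an unadjusted p under 0.05, and with array weights 5032. Members at an unadjusted p under 0.05 numbered 0 with median centring, beside 4.01% of all genes. They numbered 2 with the authors' table (4.08%, beside 5.33%) and 2 with no filter (3.77%, beside 4.20%). With slide as a fixed block there were 3 (6.67%, beside 1.81%), and with array weights 3 (6.67%, beside 18.4%). With the replicate block there were 5 (11.1%, beside 6.09%). Leaving out 1 tumour gave 0 to 3. The count was 3 without vehicle 6 (6.67%, beside 13.8%) or FAKi 1 (6.67%, beside 6.33%). It was 0 without vehicle 2, vehicle 3, FAKi 2 or FAKi 5 (beside 3.42%, 3.87%, 3.19% and 3.46%). Neighbouring pairs that passed numbered 2 with the mean of a gene's probes and 2 after subtraction of slide means, and 1 to 4 when 1 tumour was left out, being 1 without FAKi 3 or without FAKi 6. Ccl9 and Ccl6 passed under all 18 alternatives, Ccl2 and Ccl7 under 16 and Ccr9 and Cxcr6 under 7. Subtraction of slide means is 1 of the 18, and its p-values may be too small.

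Of 17 named differences 7 kept their sign throughout, and 24 of 442 values turned. With slide as a fixed block Ccl1 was 1.25, Ccr2 0.047, Ccr6 0.035 and Cxcl1 0.46. With the mean of probes Ccl1 was 0.061 and Cx3cl1 -0.10. Within slide 1, Ccl1 was 0.86, Ccl2 -0.47, Ccr6 0.20, Cxcl1 0.025 and Cxcr3 0.036. Within slide 4, Ccl1 was 1.63, Ccl24 -0.68, Ccr2 1.63, Ccr8 -0.53, Cx3cr1 0.69 and Cxcl1 0.89. Leaving out 1 tumour moved Ccl1 between -0.35 and 0.26 and Ccl2 between -0.0033 and 0.55. The cause was not tested. Leaving out 1 tumour moved 14 of the 17 by over 1.5 times, the exceptions being Ccl11, Ccl24 and Cxcl13. The slide block reads 1 FAKi tumour on each of slides 1 and 4. The adjusted p of a named difference was at least 0.111 (Ccl11 with array weights). Whether the replicate numbers pair the tumours could not be settled. Correlations of same-numbered deviations ran from -0.12 to 0.48. For replicate 6 it was 0.48, beside -0.21 to -0.07 with other numbers, and for replicate 1 it was 0.170, beside at most 0.168. For replicates 2 to 5 another number gave a higher correlation. The replicate block gave 0 genes that passed and 1666 at an unadjusted p under 0.05.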
